A study of Mus musculus with 30 samples.

Results

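The expression of 28 genes of cholesterol synthesis and its control by sterol regulatory element-binding proteins (SREBPs) was examined in mouse colon. The genes were taken from a list of sterol synthesis enzymes, SREBP regulators and sterol handling genes. Symbols were matched among the 55487 genes of the count table, and the rule uses no measured value. The 28 genes were chosen, however, with earlier results of these data known. They comprise 5 regulators (Insig1, Insig2, Srebf1, Srebf2 and Scap), 8 genes of the mevalonate and isoprenoid steps (Acat2, Hmgcs1, Mvk, Pmvk, Mvd, Idi1, Fdps and Ggps1) and 3 of the steps from farnesyl pyrophosphate to lanosterol (Fdft1, Sqle and Lss). A further 9 act between lanosterol and cholesterol (Cyp51, Tm7sf2, Lbr, Msmo1, Nsdhl, Hsd17b7, Ebp, Sc5d and Dhcr7), and the remaining 3 are the sterol carrier Stard4 and the fatty acid desaturases Fads1 and Fads2. Of the 28, 27 passed the filter on low counts and were tested. Idi1 did not, with a mean of 1.49 CPM (reads per 1000000 reads of the library) over all libraries.

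Total RNA of the colon was sequenced from the 3′ end of transcripts in 30 mice, 1 library per mouse and 5 mice per genotype. WT mice were compared with mice lacking Xbp1 in intestinal epithelial cells (Xbp1 knockout), mice lacking Casp8 in the same cells (Casp8 knockout) and mice lacking both (double knockout). A TNFR1 triple knockout lacked Xbp1, Casp8 and Tnfr1 in these cells, and an MLKL triple knockout lacked Xbp1 and Casp8 in these cells together with Mlkl, for which no cell type is named. Both triple knockouts therefore carry both deletions of the double knockout. The labels give no Cre driver, age or treatment. Libraries held 3.52e+06 to 5.82e+06 reads, so that 1 read was worth 0.232 CPM in the median library.

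As background, cells make cholesterol from acetyl-CoA through mevalonate, isoprenoid pyrophosphates, squalene and lanosterol. SREBP-2, the product of Srebf2, drives transcription of most of these enzymes, and SREBP-1, the product of Srebf1, acts more on fatty acid genes. SCAP escorts both precursors from the endoplasmic reticulum to the Golgi for cleavage when sterols are low, and the INSIG proteins hold SCAP back when sterols are high. Insig1 is itself an SREBP target, whereas Insig2 is largely not. The intestine is a major site of sterol synthesis outside the liver. XBP1 is a transcription factor of the unfolded protein response and caspase-8 is an apoptotic protease that restrains necroptosis. TNFR1 is a receptor for the cytokine TNF, and MLKL is the effector of necroptosis.

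SREBPs bind sterol regulatory elements next to sites of the factor NF-Y, and the promoters are shown here because many of these genes moved together. Both strands of the RefSeq windows (build GRCm38.p6, 250 bases before to 50 after each start, 300 bases in all) were searched for the sterol regulatory element TCACNCCAC and the NF-Y box CCAAT. Of the 28 genes, 23 had a window. The NF-Y box was present for 20 of these 23 (87.0%), against 41.1% of the 27025 genes with a window. The 27025 include genes that did not pass the filter on low counts. A gene with several windows counted if any of them matched. TCACNCCAC was present for 1 of the 23 (4.35%), against 1.44% of all genes, and the 1 was Hmgcs1. Stretches upstream of the start are printed 5′ to 3′ on the gene's strand, with matches on either strand in capitals, for 3 genes that rose in the double knockout and for Ebp, which did not pass the test there.
Hmgcs1 (chr13:119690151-119690350, plus strand): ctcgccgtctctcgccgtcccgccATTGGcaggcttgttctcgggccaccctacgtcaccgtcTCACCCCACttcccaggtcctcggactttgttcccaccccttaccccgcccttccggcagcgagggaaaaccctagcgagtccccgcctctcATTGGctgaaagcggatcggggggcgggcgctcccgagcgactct
Mvk (chr5:114444086-114444268, plus strand): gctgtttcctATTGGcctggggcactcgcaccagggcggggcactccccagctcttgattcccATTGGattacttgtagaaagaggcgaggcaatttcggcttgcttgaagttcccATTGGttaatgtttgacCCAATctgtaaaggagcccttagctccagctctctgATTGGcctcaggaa
Nsdhl (chrX:72918402-72918520, plus strand): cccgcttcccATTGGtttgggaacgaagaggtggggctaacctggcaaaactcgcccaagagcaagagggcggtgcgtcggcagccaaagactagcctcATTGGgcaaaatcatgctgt
Ebp (chrX:8193513-8193692, minus strand): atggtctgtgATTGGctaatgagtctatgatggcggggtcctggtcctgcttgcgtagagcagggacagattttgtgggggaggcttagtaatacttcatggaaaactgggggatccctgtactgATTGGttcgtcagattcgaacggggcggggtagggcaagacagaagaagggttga
In Hmgcs1 the element lay at -137 to -129 from the RefSeq start, between NF-Y boxes at -176 to -172 and -45 to -41, and no match overlapped another. The Mvk stretch held 5 NF-Y boxes, the highest number among the 23 windows. Nsdhl and Ebp each held 2 in the stretch shown, at -109 to -105 and -20 to -16 in Nsdhl and at -170 to -166 and -55 to -51 in Ebp. Of the 15 genes with a window that rose in the double knockout 14 held the box, as did 4 of the 6 that did not pass and Ggps1, the gene that fell. The risen gene without a box was Acat2. The median number of boxes was 1 in the genes that rose, 1.5 in those that did not pass and 3 in Ggps1. The printed genes that rose, Hmgcs1, Mvk and Nsdhl, held 4, 5 and 4 in their whole windows, above that median. The letters are a description of these windows, not of binding.

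Some properties of the libraries touch the results. Reads of Xist and of Y-linked genes called 17 mice female and 13 male, with 1 female among the WT mice, 3 in each single knockout, 1 among the double knockout mice, 4 in the TNFR1 and 5 in the MLKL triple knockout. Mouse 1 of the double knockout stood apart, with the lowest share of mitochondrial reads (10.3%, against up to 22.9% elsewhere) and the deepest library. Casp8 was at 55.1 ± 2.34 CPM (mean ± SD, n = 5) in WT, 29.9 ± 4.12 in the Casp8 knockout and 35.6 ± 9.70 in the double knockout, and 1 Xbp1 knockout mouse, mouse 2, was at 20.6 CPM. Xbp1 was at 78.95 ± 21.5 CPM in WT, against 53.98 ± 6.11 after its own deletion and 103 ± 23.7 in the double knockout. In the TNFR1 and MLKL triple knockouts Casp8 was at 21.5 ± 6.74 and 19.4 ± 6.17 CPM, and Xbp1 at 64.3 ± 22.5 and 76.4 ± 13.9 CPM. Mlkl was at 17.6 ± 7.13 CPM in the double and 4.66 ± 3.62 in the MLKL triple knockout, with mouse 5 of the latter at 10.7. Tnfrsf1a, the gene for TNFR1, was at 58.6 ± 8.25 CPM in the TNFR1 triple knockout, against 95.01 ± 17.95 in the double knockout, 72.2 ± 5.98 in WT and 62.6 ± 5.28 in the Xbp1 knockout. Tags at the 3′ end can lie outside the deleted exons and the tissue holds cells in which nothing was deleted, so these levels check the labels only in part. Those 3 mice are left out as an alternative beside the results that it changes.

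Most of the pathway was higher in the double knockout than in WT. Of 27 genes tested, 18 rose and 1 fell, where 21.3% of all 15458 genes tested passed, 11.1% higher and 10.2% lower (edgeR, adjusted p under 0.05). The median log2 fold change over the 27 was 0.71, beside 0.01 over all genes. In 14 of the 27 genes the 5 double knockout mice all lay above the 5 WT mice, a pattern seen in 4.84% of all genes. The largest changes were in Insig1, the SREBP-induced retention factor, in Pmvk and Acat2 of the mevalonate steps, and in Srebf1 and Lss. The tissue is a mixture, and in bulk RNA fewer cells of a type and less RNA per cell cannot be told apart.

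Markers of cell types differed between the same groups. Of 8 epithelial markers 5 rose (median log2 fold change 0.43), and their summed level was 7422 to 9014 CPM in WT and 9162 to 11886 CPM in the double knockout, with no overlap. Of 7 smooth muscle markers 7 fell (median -1.0), with summed levels of 6137 to 8592 CPM in WT and 2828 to 4259 CPM in the double knockout, and 4 of 6 fibroblast markers fell. Of 10 proliferation markers 3 rose, with summed levels of 384 to 693 CPM in WT and 319 to 803 CPM in the double knockout. B and plasma cell markers (3 of 5 tested) and monocyte and macrophage markers (4 of 7) also rose. So did T and NK cell and neutrophil markers, 3 of 3 tested for each, where 6 were listed. Marker counts here and below leave out genes that did not pass the filter on low counts. A marker can pass that filter through the groups in which it is high. Goblet cell markers moved both ways (1 of 7 rose, 3 fell), 1 of 8 markers of absorptive colonocytes fell, 4 of 7 neuron and glia markers fell and 0 of 4 adipose markers passed in edgeR. None of the markers in these lists was at 0 in all libraries. Their part in the result was not tested, apart from 1 scaling chosen after seeing the data. With each library scaled to the 8 epithelial markers in place of TMM, the median of all genes moved to -0.36 and that of the 27 pathway genes to 0.35. On that scale 11 pathway genes were called higher, in place of 18. Another 4 were called lower: Ggps1 at -0.72, Ebp at -0.30, Tm7sf2 at -0.37 and Scap at -0.51.

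**Figure D1:**
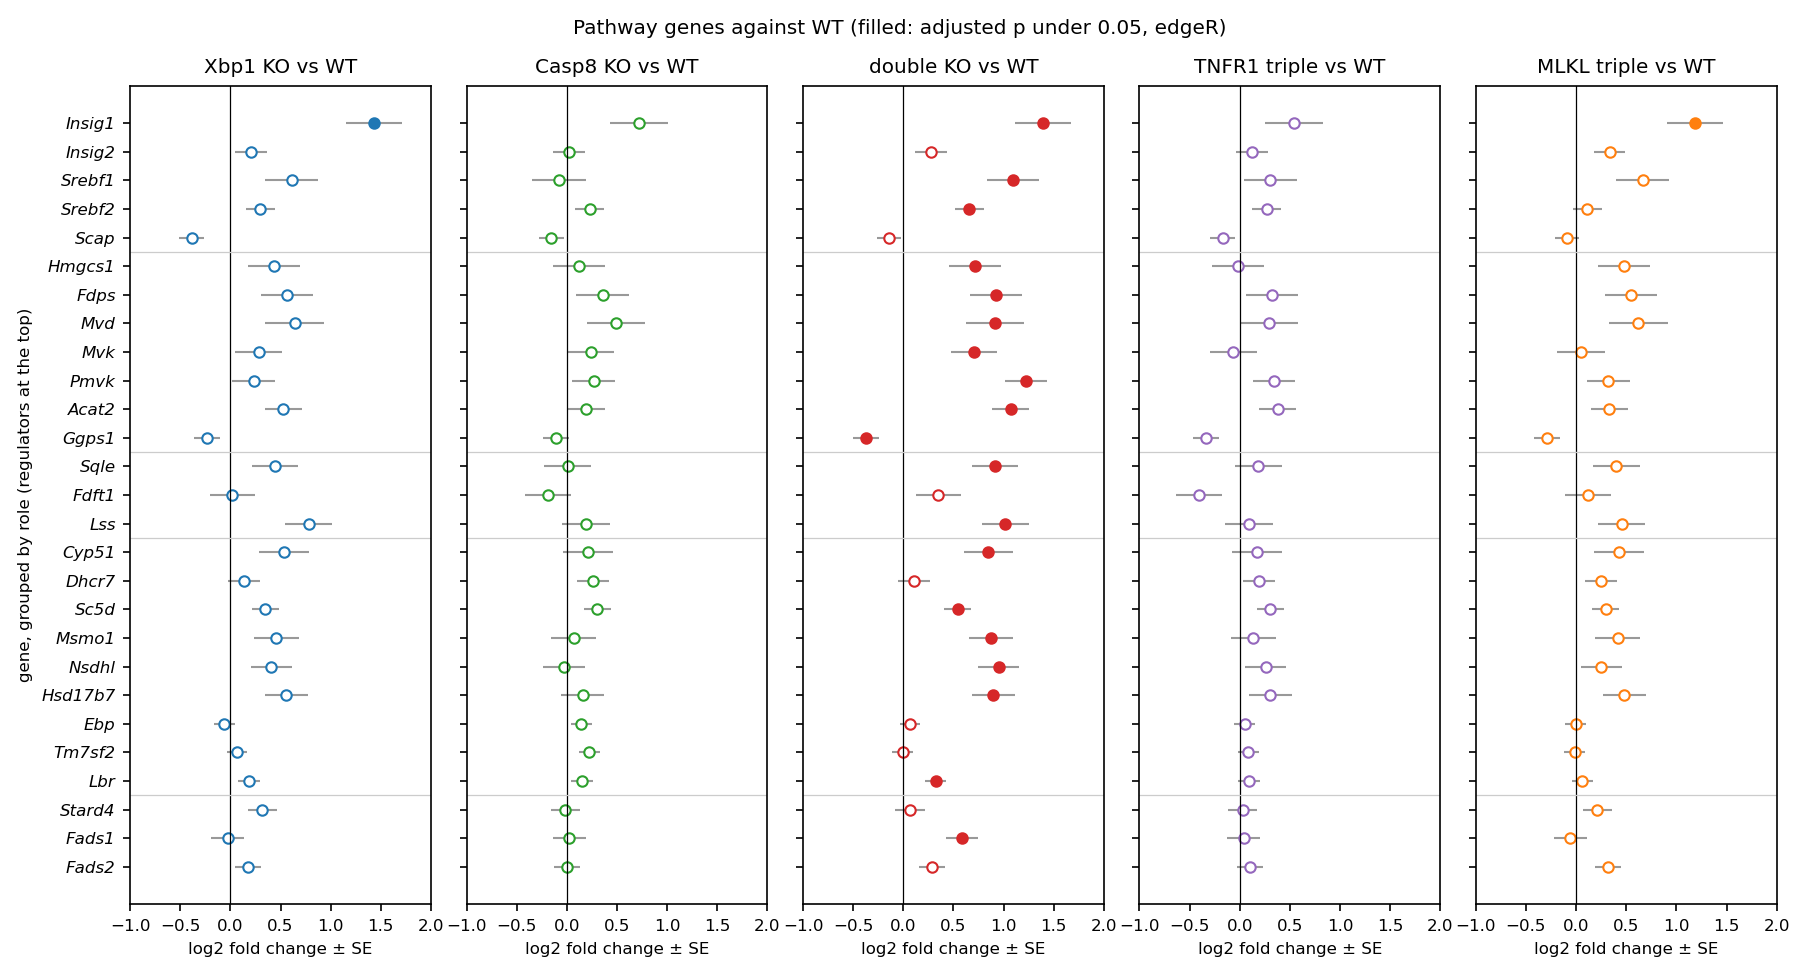
Log2 fold change ± SE (horizontal axis) of 27 pathway genes (vertical axis, grouped by role) in each knockout against WT, 5 mice per group; filled points have an adjusted p under 0.05 in edgeR. The double knockout panel has 18 filled points above 0 and 1 below, and the Xbp1 and MLKL triple knockout panels have only Insig1 filled.

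Among the regulators, Insig1 (ENSMUSG00000045294, chr5:28071363-28078662) showed the largest change against WT. Coordinates here and below are those of the annotation for GRCm38. Its level in the 5 WT mice was 9.45, 9.60, 6.92, 10.1 and 9.48 CPM. Xbp1 knockout mice held 27.05, 18.1, 17.2, 24.8 and 29.1 CPM, and Casp8 knockout mice 10.8, 15.7, 15.7, 17.3 and 12.1 CPM. All mice of both single knockouts lay above all WT mice, a pattern seen in 1.03% of all genes for the Xbp1 and 1.84% for the Casp8 knockout. In the double knockout the values were 30.4, 26.1, 12.3, 27.3 and 19.4 CPM, again all above WT, with mouse 3 the lowest. The change against WT was 1.43 ± 0.28 (log2 fold change ± SE, adjusted p = 0.0329) in the Xbp1 knockout and 1.40 ± 0.28 (adjusted p = 0.000606) in the double knockout. In the Casp8 knockout it was 0.72 ± 0.29 and did not pass (adjusted p = 0.225). Insig1 in the TNFR1 triple knockout was 21.1, 6.25, 7.42, 10.3 and 17.3 CPM and overlapped WT. In the MLKL triple knockout it was 22.5, 23.7, 25.3, 12.4 and 18.7 CPM, all above WT, as in 1.45% of all genes.

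Insig2, the retention factor that is largely not an SREBP target, passed in none of its 11 comparisons. It was 18.2, 20.4, 19.3, 18.7 and 17.3 CPM in WT and 20.8, 20.8, 25.4, 24.9 and 17.5 CPM in the double knockout, and the groups overlapped. The log2 difference was 0.28 (95% interval -0.03 to 0.59, adjusted p = 0.213). Insig2 was 20.4 ± 3.07 CPM in the Xbp1 knockout, 18.4 ± 4.58 in the Casp8 knockout, 19.5 ± 2.37 in the TNFR1 triple and 23.8 ± 6.23 in the MLKL triple knockout. The smallest adjusted p among them was that against WT in the double knockout.

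Both SREBP genes rose in the double knockout. Srebf2 (ENSMUSG00000022463, chr15:82147181-82205379), encoding the sterol-directed SREBP-2, was 123, 106, 100.5, 108 and 103 CPM in WT and 150.3, 178, 152, 196 and 144 CPM in the double knockout, without overlap (log2 fold change 0.66 ± 0.14, adjusted p = 0.0014). Srebf1 (ENSMUSG00000020538, chr11:60199089-60222581) was 20.02, 18.2, 15.2, 15.4 and 14.4 CPM in WT and 43.96, 50.7, 26.5, 28.3 and 21.3 CPM in the double knockout, where mice 1 and 2 were highest (log2 fold change 1.09 ± 0.26, adjusted p = 0.00275). Srebf1 was also higher in the double than in the Casp8 knockout, whose mice held 9.53, 23.9, 11.1, 21.1 and 10.2 CPM with mice 2 and 4 above WT and the other 3 below it. Against the Xbp1 knockout (32.5, 17.5, 19.3, 23.1 and 27.1 CPM) the difference of 0.49 did not pass (adjusted p = 0.224). Reads of Srebf1 can be shared with Rai1, which lies on the opposite strand over its 3′ end. Rai1 itself differed by 0.27 between double knockout and WT and did not pass.

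Scap, the escort of the SREBP precursors, did not pass in the double knockout. It was 51.1, 59.3, 51.3, 45.9 and 63.9 CPM in WT, 39.1, 39.8, 44.97, 39.2 and 32.6 CPM after loss of Xbp1 and 60.6, 48.3, 53.8, 29.7 and 43.95 CPM in the double knockout. All 5 Xbp1 knockout mice lay below all WT mice in CPM, as in 4.66% of all genes, whereas 1.03% had them all above. The difference of -0.38 ± 0.12 did not pass (unadjusted p = 0.00407, adjusted p = 0.171). In the double knockout the groups overlapped (log2 difference -0.14, adjusted p = 0.446).

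**Figure D2:**
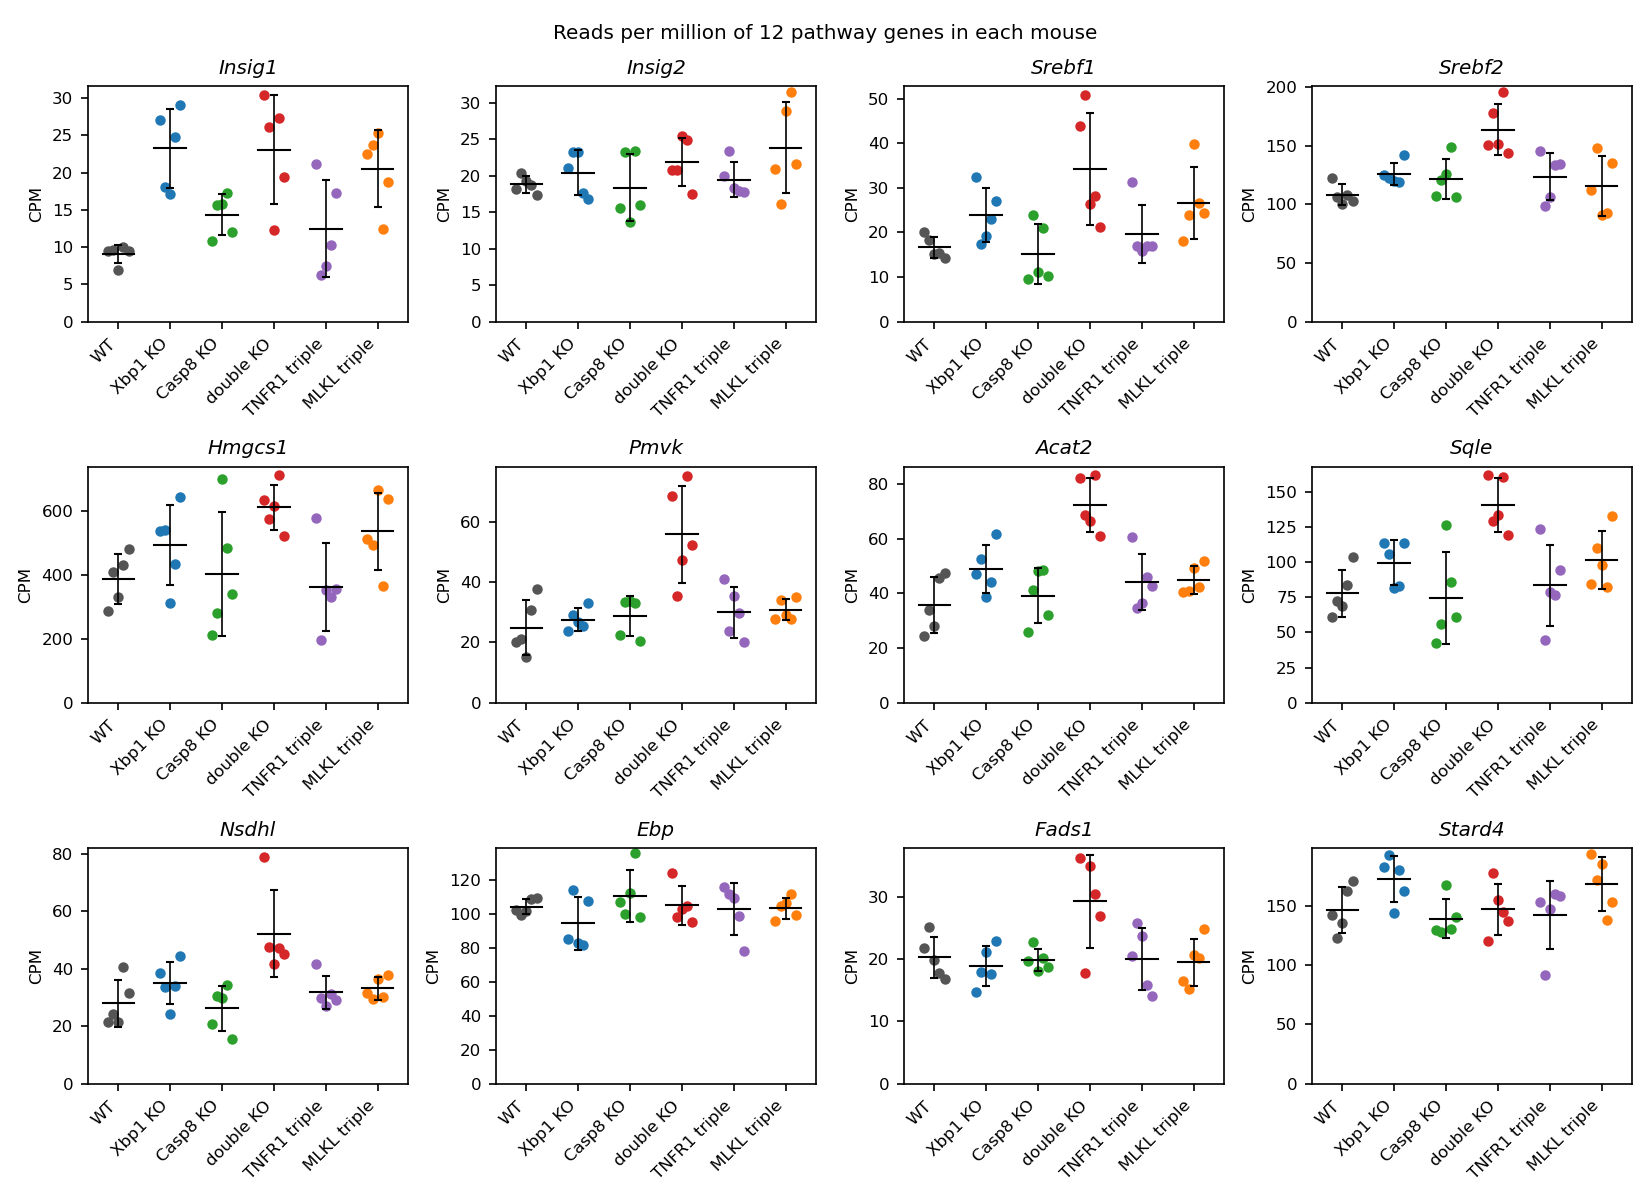
CPM (vertical axis) of 12 pathway genes in each mouse of 6 genotypes; each point is a mouse, and the horizontal lines and bars are the mean and SD over 5 mice. Double knockout mice lie above all WT mice for Insig1, Srebf1, Srebf2, Hmgcs1, Acat2, Sqle and Nsdhl, and overlap WT for Insig2, Pmvk, Ebp, Fads1 and Stard4.

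Of the 7 mevalonate and isoprenoid genes tested, 6 rose in the double knockout and Ggps1 fell. Acat2 (ENSMUSG00000023832, chr17:12942890-12960747), the cytosolic thiolase that starts the pathway, had the smallest p of the 27 genes. It was 24.5, 33.97, 28.2, 45.6 and 47.4 CPM in WT and 82.3, 68.9, 66.5, 83.4 and 61.03 CPM in the double knockout, with no overlap (2.10-fold, log2 1.07 ± 0.18, adjusted p = 0.000133). Pmvk (ENSMUSG00000027952, chr3:89454541-89469013), phosphomevalonate kinase, was 20.02, 20.9, 15.04, 30.7 and 37.6 CPM in WT, 23.7, 28.9, 26.6, 25.3 and 33.2 CPM in the Xbp1 knockout, 22.5, 33.2, 33.8, 33.1 and 20.3 CPM in the Casp8 knockout and 68.5, 35.4, 47.2, 75.1 and 52.4 CPM in the double knockout. The double knockout lay above both single knockouts in every mouse. Of all genes, 3.23% did so against the Xbp1 and 3.93% against the Casp8 knockout. Double knockout mouse 2 overlapped the highest WT mouse (log2 fold change against WT 1.22 ± 0.21, adjusted p = 0.000134).

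Hmgcs1 (ENSMUSG00000093930, chr13:119690379-119708260), which makes HMG-CoA, was 287, 411, 331, 431 and 482 CPM in WT and 635, 575, 617, 713 and 521 CPM in the double knockout. The groups did not overlap, and the log2 fold change was 0.72 ± 0.26 (adjusted p = 0.0445). The Casp8 knockout was the most spread, at 210.4, 280.1, 701, 486 and 339.6 CPM, and the Xbp1 knockout held 538, 542, 313, 433 and 646 CPM. Fdps, farnesyl pyrophosphate synthase, was 22.5, 29.1, 29.6, 35.1 and 42.4 CPM in WT, 45.3, 48.04, 36.1, 34.2 and 57.9 CPM in the Xbp1 knockout, 15.9, 34.4, 53.4, 52.2 and 37.1 CPM in the Casp8 knockout and 65.5, 47.6, 62.02, 66.4 and 46.2 CPM in the double knockout (log2 fold change against WT 0.92 ± 0.26, adjusted p = 0.0105). Gm43738 overlaps the 3′ end of Fdps on the same strand, had a mean of 3.455 CPM and rose by 1.12 (adjusted p = 0.0168). Its part in the Fdps value was not tested. The mevalonate kinase Mvk rose by 0.71 (adjusted p = 0.0273) and the decarboxylase Mvd by 0.91 (adjusted p = 0.0225). Ggps1, which leads from the sterol route to geranylgeranyl groups, fell by 0.37 (adjusted p = 0.0373), from 56.99 ± 3.94 to 42.4 ± 7.79 CPM. Idi1, the isopentenyl pyrophosphate isomerase, was 0.9, 1.72, 1.67, 1.64 and 1.62 CPM in WT and 2.58, 2.63, 1.79, 1.90 and 1.37 CPM in the double knockout, and its mean was 1.84 ± 0.311 CPM in the Xbp1 and 1.28 ± 0.951 CPM in the Casp8 knockout. These values rest on a few reads each, and without the filter its log2 difference was 0.51 (adjusted p = 0.527).

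From farnesyl pyrophosphate to lanosterol, Sqle and Lss rose and Fdft1 did not pass. Sqle (ENSMUSG00000022351, chr15:59315077-59331192), the squalene epoxidase and an oxygen-dependent control point, was 60.7, 72.1, 68.7, 83.5 and 104 CPM in WT and 162, 129, 134, 160.4 and 119 CPM in the double knockout, with no overlap (log2 fold change 0.92 ± 0.23, adjusted p = 0.00491). Xbp1 knockout mice held 114, 106, 81.6, 83.2 and 114 CPM of Sqle and Casp8 knockout mice 42.7, 55.9, 126, 85.8 and 61.3 CPM. Lss, lanosterol synthase, was 15.97, 17.97, 15.3, 20.8 and 21.4 CPM in WT and 46.97, 26.8, 28.7, 40.3 and 35.5 CPM in the double knockout (1.02 ± 0.23, adjusted p = 0.00196). All 5 Xbp1 knockout mice also held more Lss than any WT mouse (33.2, 24.6, 24.8, 28.1 and 37.3 CPM), as in 1.03% of all genes. That difference of 0.78 did not pass (adjusted p = 0.135). Fdft1, squalene synthase, was 34.9 ± 11.9 CPM in WT and 42.8 ± 10.7 CPM in the double knockout (log2 difference 0.35, 95% interval -0.09 to 0.79, adjusted p = 0.28). The lysosomal protease gene Ctsb overlaps the 3′ end of Fdft1 on the opposite strand, had a mean of 267 CPM and rose by 0.47, and its part in the Fdft1 value was not tested.

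Between lanosterol and cholesterol, 6 of 9 genes rose in the double knockout. Cyp51, the lanosterol demethylase, was 58.03, 85.2, 65.04, 106 and 109 CPM in WT and 173, 124, 144, 149 and 145 CPM in the double knockout, without overlap (log2 fold change 0.85 ± 0.25, adjusted p = 0.0138). Akap9, which overlaps its 3′ end on the opposite strand, moved the other way (-0.47). Nsdhl (ENSMUSG00000031349, chrX:72918557-72958514), of the demethylation complex, was 21.4, 24.4, 21.5, 40.7 and 31.7 CPM in WT, 20.8, 30.6, 29.9, 34.4 and 15.4 CPM in the Casp8 knockout and 78.8, 47.6, 41.7, 47.3 and 45.1 CPM in the double knockout, where mouse 1 was far above the others (0.95 ± 0.20 against WT, adjusted p = 0.0011). Msmo1 and Hsd17b7, which act in the same removal of methyl groups, rose by 0.87 (adjusted p = 0.0055) and 0.90 (adjusted p = 0.0027). The desaturase Sc5d rose by 0.54 (adjusted p = 0.00371). Lbr, a nuclear membrane protein with sterol reductase activity, rose by 0.32 (adjusted p = 0.0321), which became -0.033 with the epithelial scaling. Dnah14 overlaps the 3′ end of Lbr on the opposite strand and had a mean of 48.6 CPM. It differed by 0.27 without passing (adjusted p = 0.0994), and its part in the Lbr value was not tested.

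The other 3 genes of this stage did not pass, and their intervals bound how far they could differ. Ebp, the sterol isomerase, was 104 ± 4.52 CPM in WT and 105 ± 11.4 CPM in the double knockout (log2 difference 0.07, 95% interval -0.14 to 0.27). Tm7sf2, which shares its reductase step with Lbr, was 34.8 ± 4.88 and 33.1 ± 3.03 CPM (log2 difference -0.01, interval -0.21 to 0.20). Dhcr7, the reductase that yields cholesterol, was 40.4 ± 10.4 and 41.7 ± 9.89 CPM (log2 difference 0.11, interval -0.20 to 0.41). The upper bounds of Ebp and Tm7sf2 lie under the estimated change of every enzyme gene that rose, with Lbr as the nearest at 0.32. That sets a bound against estimates with their own spread, and Lbr was as low as 0.26 with 1 library left out. Differences between genes were not tested.

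Stard4, a cytosolic sterol carrier and SREBP-2 target, did not pass against WT. It was 142, 123, 136, 162 and 171 CPM in WT and 120.0, 178, 155, 145 and 137 CPM in the double knockout (log2 difference 0.07, 95% interval -0.22 to 0.35), and 183, 193, 144, 180.2 and 163 CPM in the Xbp1 knockout. The desaturase Fads1 was 21.8, 25.1, 19.8, 17.8 and 16.8 CPM in WT and 36.2, 17.7, 34.9, 30.4 and 26.9 CPM in the double knockout. Mouse 2 lay within WT and the other 4 above it (log2 fold change 0.58 ± 0.16, adjusted p = 0.00914). Fads1 was 14.8, 17.9, 21.1, 17.6 and 22.9 CPM in the Xbp1 and 19.6, 22.7, 18.02, 20.1 and 18.7 CPM in the Casp8 knockout, and both groups overlapped WT. Fads2 was 341, 294, 294, 288 and 308 CPM in WT and 283, 397, 339, 438 and 315 CPM in the double knockout, and the difference of 0.28 ± 0.13 did not pass (adjusted p = 0.117).

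Of these 19 calls against WT, 14 were made with each of the 10 libraries left out in turn. Hmgcs1, Mvk, Mvd, Lbr and Ggps1 were the exceptions. Hmgcs1 lost its call without WT mouse 1, 2, 3 or 4 or double knockout mouse 1, 2, 3 or 4 (adjusted p up to 0.11), and Mvk without WT mouse 1 or 3 or double knockout mouse 1 (up to 0.0906). Mvd lost it without WT mouse 1 or 3 or double knockout mouse 1 or 4 (up to 0.0669). Lbr lost it without WT mouse 1, 3 or 5 or double knockout mouse 3, 4 or 5 (up to 0.112), and Ggps1 without WT mouse 2, 3 or 5 or double knockout mouse 1, 2 or 3 (up to 0.0974). Fads2 passed without double knockout mouse 1. In males only, 4 mice of each group, 15 genes were called, all higher. Without the 3 mice that stand apart the count was 16. Among all 20 alternatives, Srebf2 and Sc5d also lost their calls in 1 and Fads1 in 2, none of them with 1 library left out. Their lowest log2 fold changes under any alternative were 0.29, 0.18 and 0.21 (adjusted p up to 0.0748, 0.214 and 0.342).

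Loss of Xbp1 alone gave 1 call among the 27 genes, Insig1, where 0.0841% of all genes were called (0.0582% higher and 0.0259% lower). The median log2 fold change over the 27 was 0.32, beside -0.0021 over all genes, and 23 of 27 values were above 0. At an unadjusted p under 0.05 there were 12 of the 27 genes, beside 13.05% of all genes. Lss and Scap were among them with 0.78 ± 0.23 and -0.38 ± 0.12, as were Acat2 (0.53 ± 0.18) and Hsd17b7 (0.56 ± 0.21). These 4 did not pass (adjusted p = 0.135, 0.171, 0.204 and 0.237). A fit of the Xbp1 knockout and WT libraries alone called 3 genes, Insig1, Lss and Hsd17b7. The Insig1 call ended without any 1 of the WT mice or of Xbp1 knockout mice 1, 4 and 5, with adjusted p from 0.0584 to 0.0913 and log2 fold changes of 1.35 to 1.53 over all libraries left out.

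Loss of Casp8 alone gave no call among the 27 genes (1.17% of all genes were called, 0.634% higher and 0.537% lower). The median log2 fold change was 0.15, and 3 genes (Insig1, Sc5d and Tm7sf2) had an unadjusted p under 0.05 by edgeR. That is 11.1% of the 27, no more than the 15.6% of all genes. DESeq2 also called 0, and a fit of these 2 groups alone called Insig1. Casp8 knockout mice differed widely among themselves, with mouse 1 lowest and mouse 3 highest for Hmgcs1 (210.4 and 701 CPM), Sqle (42.7 and 126), Cyp51 (43.9 and 151) and Msmo1 (99.5 and 295).

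The design asks whether losing both genes differs from the sum of the single losses. For the interaction of the deletions on the log2 scale, 0 of 27 genes passed, where 1.38% of all genes were called (0.712% higher and 0.666% lower). DESeq2 called 0 as well, and 3 genes (11.1%) had an unadjusted p under 0.05 in edgeR, fewer by share than the 18.2% of all genes. These were Fads1 (0.58 ± 0.23, adjusted p = 0.17), Pmvk (0.72 ± 0.30, adjusted p = 0.191) and Scap (0.40 ± 0.18, adjusted p = 0.22). The interaction value of Insig1 was -0.75 ± 0.39 (95% interval -1.51 to 0.01) and that of Acat2 0.35 ± 0.26 (interval -0.15 to 0.86), so these data allow sizeable departures from the sum in either gene.

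Against the single knockouts, the double knockout differed in fewer pathway genes. Against the Casp8 knockout, 10 genes rose and 0 fell (18.4% of all genes passed, 9.68% higher and 8.71% lower), with a median log2 fold change of 0.54. Nsdhl had the smallest p there, at 0.98 ± 0.20 (adjusted p = 0.00133), followed by Acat2 at 0.88 ± 0.18 (adjusted p = 0.00134), Pmvk at 0.95 ± 0.21 (adjusted p = 0.00194) and Srebf1 at 1.17 ± 0.26 (adjusted p = 0.00237). Sqle, Msmo1, Lss, Hsd17b7, Fads1 and Srebf2 were the others, with log2 fold changes from 0.43 to 0.91. Of these 10 calls 8 held with each library left out. Srebf2 lost its call without Casp8 knockout mouse 1, 2 or 5 or double knockout mouse 2 or 4 (adjusted p up to 0.111), and Fads1 without double knockout mouse 1 (0.0527). Without Casp8 knockout mouse 3, in which Hmgcs1 and Sqle were highest, the count rose to 15, with Cyp51, Fdft1, Hmgcs1, Mvd and Mvk added. Among the markers, 5 of 8 for epithelium were higher and 1 lower, 6 of 7 for smooth muscle were lower, and 5 of 7 for monocytes and macrophages, 3 of 5 for B and plasma cells, 2 of 3 for T and NK cells and 3 of 3 for neutrophils were higher. Goblet cell markers moved both ways (3 higher and 3 lower of 7). Summed epithelial markers were at 7111 to 8983 CPM in the Casp8 knockout, and the part of these cells in the result was not tested.

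Against the Xbp1 knockout, 2 genes rose and 0 fell (8.64% of all genes passed, 4.77% higher and 3.86% lower). That is 7.41% of the 27, no more than the share of all genes that passed. The 2 were Pmvk (0.99 ± 0.21, adjusted p = 0.00348) and Fads1 (0.61 ± 0.16, adjusted p = 0.0157), and the median over the 27 was 0.28. An unadjusted p under 0.05 in edgeR was reached by 6 of the 27 (22.2%), beside 24.96% of all genes. Without Xbp1 knockout mouse 1 or double knockout mouse 1 only Pmvk remained called (Fads1 adjusted p = 0.0509 and 0.0566). Insig1 differed by -0.03 ± 0.26 between these groups. Without the 3 mice that stand apart the count was 1, and Acat2 was added without Xbp1 knockout mouse 5 or double knockout mouse 5. Markers moved here too: 3 of 8 for epithelium rose (7142 to 8801 CPM summed in the Xbp1 knockout), 6 of 7 for smooth muscle and 2 of 6 for fibroblasts fell, and 3 of 5 for B and plasma cells, 3 of 7 for monocytes and macrophages and 2 of 3 for neutrophils rose. Their part in the result was not tested. The comparisons with WT and with the single knockouts share libraries, so their values for a gene are not independent of each other.

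The triple knockouts were set against the double knockout for the added loss of TNFR1 or MLKL. Casp8 also differed from the double knockout, by -0.91 in the MLKL triple (adjusted p = 0.0162) and -0.71 in the TNFR1 triple knockout (0.0998, not passed). Xbp1 differed by -0.49 and -0.66 and did not pass (adjusted p = 0.134 and 0.0738). The part of these differences in the results was not tested. In the TNFR1 triple knockout 3 of 27 pathway genes fell and 0 rose, where 2.35% of all genes passed (1.33% lower and 1.02% higher). The median log2 fold change was -0.60, beside -0.0037 over all genes, 24 of 27 values were below 0, and 18 genes had an unadjusted p under 0.05, beside 18.2% of all genes. The 3 were Pmvk, Lss and Acat2. Pmvk was 40.8, 23.6, 35.2, 29.8 and 20.2 CPM in the TNFR1 triple knockout (-0.88 ± 0.21, adjusted p = 0.0222), and mouse 1 overlapped the lowest double knockout mouse. Lss was 25.1, 12.5, 19.7, 15.96 and 19.5 CPM, all below the double knockout (-0.92 ± 0.23, adjusted p = 0.0284). Acat2 was 60.6, 34.7, 36.6, 46.1 and 42.6 CPM, all below it too (-0.69 ± 0.18, adjusted p = 0.0368). Of all genes, 1.10% had all TNFR1 triple knockout mice below all double knockout mice.

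Other genes of the TNFR1 triple knockout had log2 differences of similar size without passing. Hmgcs1 was 580.2, 195, 354, 331 and 356 CPM (difference from the double knockout -0.73 ± 0.26, adjusted p = 0.119) and Sqle 123, 44.2, 78.6, 76.3 and 94.5 CPM (-0.73 ± 0.23, adjusted p = 0.0815). In both, mouse 1 was highest and within the range of the double knockout, and mouse 2 was lowest and below WT. Fdps (58.6, 18.4, 30.9, 33.8 and 44.7 CPM) and Cyp51 (144, 48.99, 94.1, 82.5 and 83.1 CPM) had the same order at their ends. Srebf1 was 31.2, 17.03, 15.9, 16.9 and 16.9 CPM, with mouse 1 high and the other 4 within the range of WT.

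The count of 3 depended on single mice. Without TNFR1 triple knockout mouse 1 it rose to 15, all lower, with Hmgcs1, Mvk, Mvd, Fdft1, Sqle, Cyp51, Msmo1, Nsdhl, Hsd17b7, Insig1, Srebf1 and Fads1 added. It was 0 without TNFR1 triple knockout mouse 2, 4 or 5 or double knockout mouse 1 or 4, 1 without TNFR1 triple knockout mouse 3, 2 without double knockout mouse 5, 6 without double knockout mouse 2 and 5 without double knockout mouse 3. DESeq2 called 10 genes, all lower. Without the 3 mice that stand apart, and in a fit of these 2 groups alone, 0 were called. With sex as a term 0 were called in edgeR, at log2 differences of -0.82 for Pmvk (adjusted p = 0.0569), -0.79 for Lss (0.09) and -0.73 for Acat2 (0.0571). Goblet cell (3 of 7), neutrophil (2 of 3) and B and plasma cell markers (1 of 5) fell in the same comparison. Smooth muscle markers rose (5 of 7, 3577 to 7154 CPM against 2828 to 4259), 0 of 8 epithelial markers passed in edgeR with 4 at an unadjusted p under 0.05 (7844 to 9309 against 9162 to 11886 CPM), and their part in the result was not tested beyond the epithelial scaling, which called 3 genes lower with a median of -0.39 beside 0.23 for all genes.

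**Figure D3:**
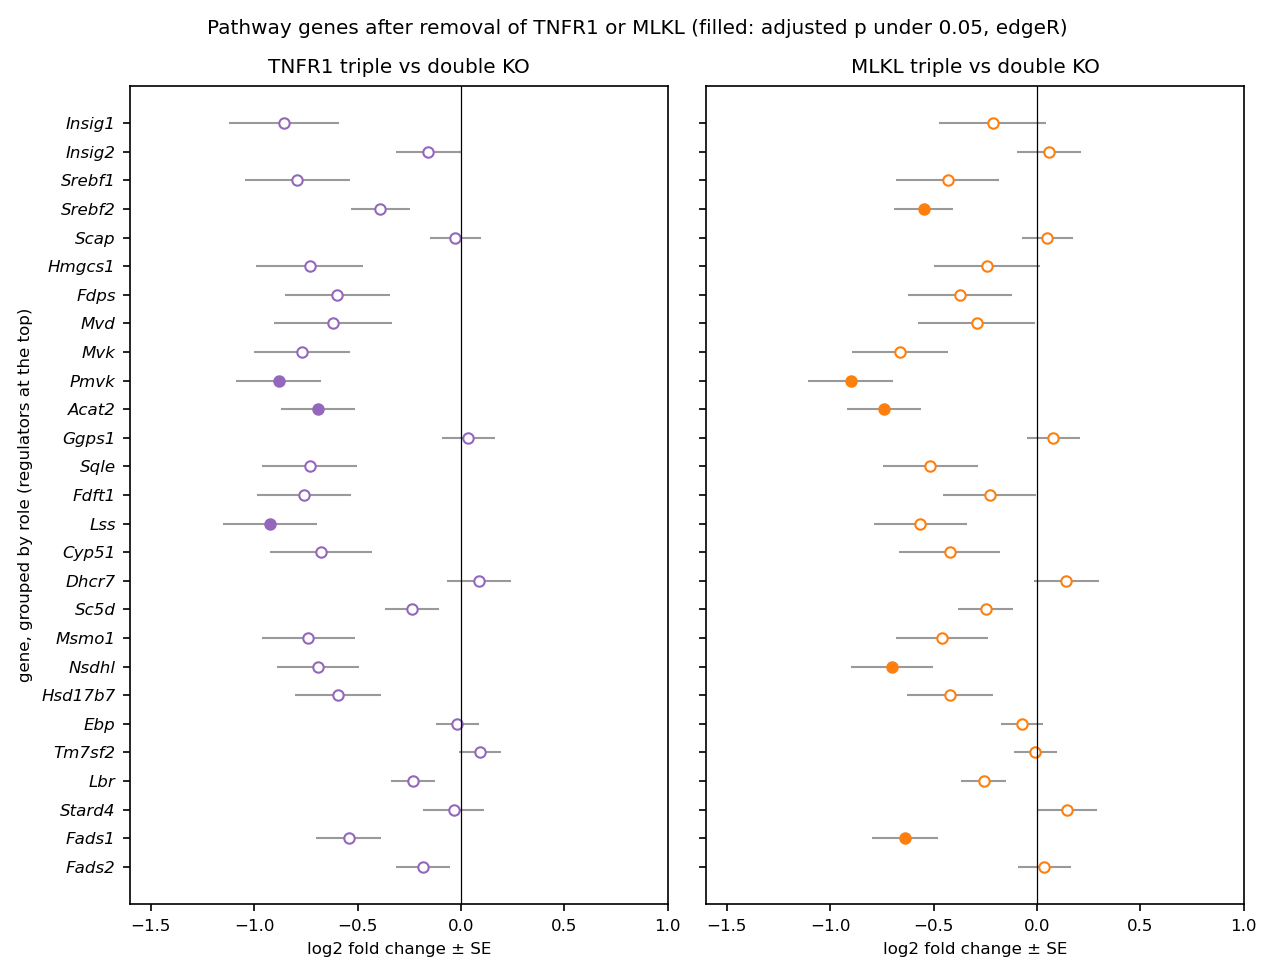
Log2 fold change ± SE (horizontal axis) of 27 pathway genes (vertical axis, grouped by role) in each triple knockout against the double knockout, 5 mice per group; filled points have an adjusted p under 0.05 in edgeR. Lss, Pmvk and Acat2 are filled on the left, and Srebf2, Pmvk, Acat2, Nsdhl and Fads1 on the right, all below 0.

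In the MLKL triple knockout 5 of 27 genes fell against the double knockout and 0 rose (7.65% of all genes passed, 4.21% lower and 3.44% higher). The median log2 fold change was -0.29, and 10 genes had an unadjusted p under 0.05, beside 22.8% of all genes. Pmvk was 27.7, 33.98, 29.2, 27.8 and 35.02 CPM (-0.90 ± 0.21, adjusted p = 0.00625) and Acat2 40.4, 40.9, 49.3, 42.4 and 51.8 CPM (-0.74 ± 0.18, adjusted p = 0.0101), and in both all mice lay below the double knockout. Nsdhl was 31.4, 29.4, 36.5, 30.2 and 37.9 CPM, also all below (-0.70 ± 0.20, adjusted p = 0.0277). Such a separation was seen in 1.60% of all genes. Srebf2 was 112, 148, 90.5, 92.3 and 135 CPM (-0.55 ± 0.14, adjusted p = 0.0162) and Fads1 16.5, 15.2, 20.6, 20.2 and 24.8 CPM (-0.64 ± 0.16, adjusted p = 0.0122), with overlap. Insig1 differed by -0.21 ± 0.26 (adjusted p = 0.679), Hmgcs1 by -0.24 ± 0.26 and Srebf1 by -0.43 ± 0.25.

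Of the 5 calls, those of Pmvk, Acat2 and Fads1 held with each library left out. Nsdhl lost its call without double knockout mouse 1 or MLKL triple knockout mouse 1, 2 or 4 (adjusted p up to 0.11), and Srebf2 without double knockout mouse 4 or MLKL triple knockout mouse 3 or 4 (up to 0.068). Without MLKL triple knockout mouse 4 the count was 3, and without the 3 mice that stand apart it was 4. All 5 MLKL triple knockout mice were called female and 4 of the 5 double knockout mice male, and with sex as a term 4 genes were called, without Nsdhl (adjusted p = 0.0935). Epithelial markers moved here as well: 3 of 8 fell (8023 to 8829.6 CPM against 9162 to 11886 CPM in the double knockout). In addition, 4 of 7 smooth muscle markers rose, and 3 of 5 for B and plasma cells, 3 of 3 for neutrophils and 2 of 7 for monocytes and macrophages fell, and their part in the result was not tested. With the epithelial scaling the median of the 27 genes was -0.01, beside 0.28 for all genes, and the calls were Pmvk and Acat2 lower and Dhcr7 and Stard4 higher (0.42 and 0.41).

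Set against WT, at most 1 of these genes passed in either triple knockout. In the TNFR1 triple knockout 0 of 27 passed (2.12% of all genes were called, 1.16% higher and 0.957% lower), with a median of 0.14, and 0 by DESeq2. An unadjusted p under 0.05 in edgeR was reached by 3 genes (11.1%), a share below the 17.6% of all genes. In the MLKL triple knockout Insig1 alone passed (1.18 ± 0.28, adjusted p = 0.0368), where 0.854% of all genes were called (0.343% higher and 0.511% lower), and the median was 0.32. There 9 of the 27 genes (33.3%) had an unadjusted p under 0.05 in edgeR, beside 15.4% of all genes, and 22 values were above 0. The Insig1 call ended without any 1 of the WT mice or of MLKL triple knockout mice 1, 2 and 3 (adjusted p up to 0.112) and with sex as a term (0.147). Between the triple knockouts 0 genes passed (0.259% of all genes were called, 0.0906% higher and 0.168% lower), and 0 by DESeq2, with 2 (7.41%) at an unadjusted p under 0.05 in edgeR, beside 8.55% of all genes. The largest difference there was in Insig1, lower by 0.64 in the TNFR1 triple knockout (log2 -0.64 ± 0.27, adjusted p = 0.487).

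**Figure D4:**
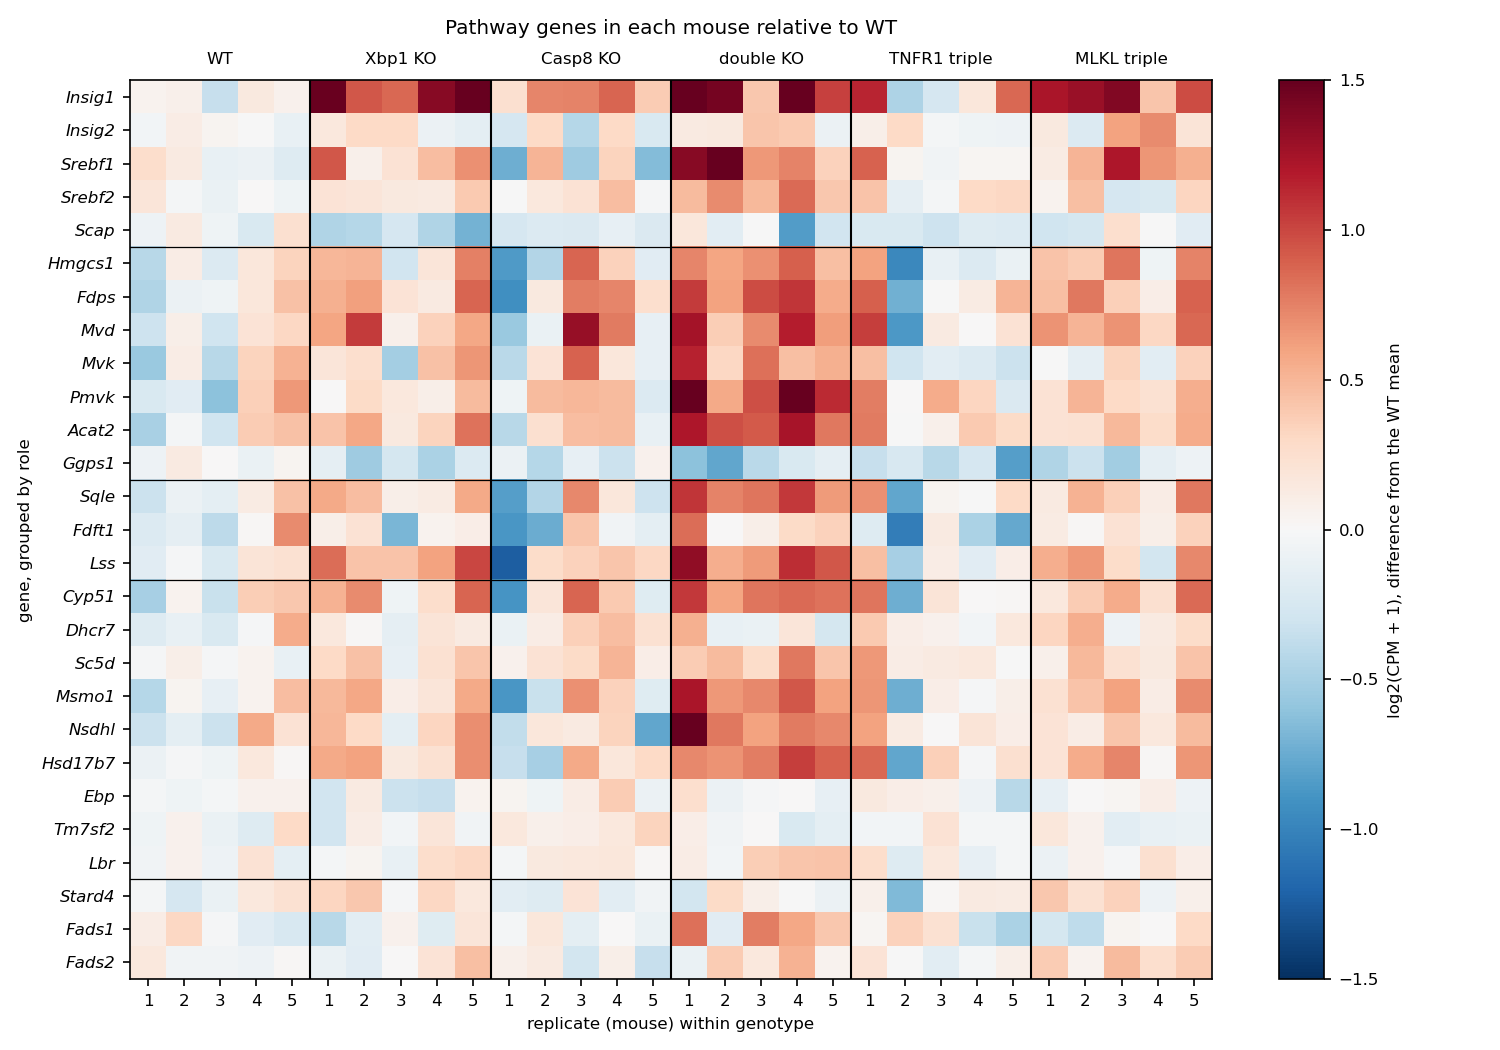
Difference of log2(CPM + 1) from the WT mean (colour, blue lower and red higher, saturated beyond ±1.5) for 27 pathway genes (rows, grouped by role) in 30 mice (columns, by genotype and replicate number). Double knockout columns are red for most enzymes, while mouse 1 of the TNFR1 triple knockout is red and mouse 2 blue across the same genes.

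The mice of a genotype differed in the pathway as a whole. The mean difference from the WT mean over the 27 genes, on the log2(CPM + 1) scale, ran from 0.41 to 0.73 in the double knockout, from -0.18 to 0.22 in WT, from 0.12 to 0.43 in the MLKL triple and from -0.36 to 0.33 in the Casp8 knockout. In the TNFR1 triple knockout mouse 1 was at 0.45, mouse 2 at -0.31 and the other 3 between -0.01 and 0.04. No mouse of another genotype exceeded the double knockout's highest value, and the highest mice of the Xbp1 knockout (0.44), the TNFR1 triple and the MLKL triple knockout lay within its range. After removal of each genotype's mean, the genes still varied together over the 30 mice. Pearson's r over 351 gene pairs had a median of 0.31, beside 0.03 over all pairs of tested genes, and 33.0% of the pairs were above 0.5, beside 2.65% of all pairs. These points share libraries, depth and tissue makeup, and the correlations are a description. The 27 genes had means of 17.1 to 466 CPM over all libraries, and the pairs of all tested genes were not matched to them for level.

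Most alike were Sqle and Msmo1 (r = 0.96), Hmgcs1 and Msmo1 (0.94), Msmo1 and Mvd (0.94) and Cyp51 and Msmo1 (0.93), which act at separate steps. Insig1 was most like Lss (0.62), Acat2 most like Cyp51 (0.89) and Pmvk most like Acat2 (0.72). Srebf2 was most like Sc5d (0.65) and least like Scap (-0.44), and Srebf1 was most like Insig1 (0.54). Median r with the other genes was highest for Msmo1 (0.58) and Acat2 (0.57) and lowest for Insig2 (-0.13) and Ggps1 (-0.08). The lowest value of all pairs was that of Fads1 and Stard4 (-0.69).

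Genes of neighbouring pathways were read from 4 other lists. Of 13 genes that process SREBPs or degrade proteins on sterol signals, 3 rose and 1 fell in the double knockout against WT (median log2 fold change 0.17). Tmem97, a sterol-responsive membrane protein, rose by 0.80 (adjusted p = 0.002), Erlin2, of the complex that degrades sterol-sensing proteins, by 0.44 (0.00344) and the ATPase gene Vcp by 0.35 (0.0432), while the SREBP protease gene Mbtps1 fell by 0.21 (0.0408). Of 14 genes of the non-sterol branch 2 rose and 0 fell (median 0.02), namely Pdss1 (0.59, adjusted p = 0.0042), for the ubiquinone side chain, and Nus1 (0.53, adjusted p = 0.0175), for dolichol. These shares stand beside 21.3% of all genes called in either direction.

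Of 20 tested genes of fatty acid synthesis and SREBP-1 targets, 8 rose and 1 fell in the double knockout (median log2 fold change 0.28). Among all genes 11.1% rose and 10.2% fell there. Aacs, which feeds ketone-derived carbon into lipid synthesis, went from 22.7 ± 6.12 to 55.8 ± 15.5 CPM (1.36 ± 0.26, adjusted p = 0.000328). Agpat2, an acyltransferase of glycerolipid synthesis, rose by 0.71 (adjusted p = 0.000152), the desaturase Scd2 by 0.98 (0.00083) and Mid1ip1, an activator of acetyl-CoA carboxylase, by 0.73 (0.00375). The other 5 are named after their values were seen: Fasn, Elovl1, Elovl5 and Hsd17b12 rose, and Me1, the cytosolic malic enzyme, fell. The elongase Elovl5 was 1 of the genes past the threshold for the interaction of the deletions (0.87 ± 0.18, adjusted p = 0.0189), and Acsl3, an acyl-CoA synthetase, was another in the opposite direction (-0.80 ± 0.17, adjusted p = 0.0229). In the TNFR1 triple knockout Elovl5 (-0.54) and Agpat2 (-0.44) fell and Acsl3 (0.52) rose against the double knockout. Agpat2 (-0.55), Elovl5 (-0.43) and Elovl1 (-0.39) fell and Me1 (1.03) rose where MLKL was also lost.

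Of 20 tested genes of sterol efflux, esterification and trafficking, many of them targets of the oxysterol receptor LXR, 5 rose and 1 fell in the double knockout against WT (median log2 fold change 0.04). Among all genes 11.1% rose and 10.2% fell in that comparison. Abcg1, a sterol exporter also abundant in macrophages, rose by 1.67 (adjusted p = 0.000298), Arl4c by 1.08 (0.00326) and the lipoprotein receptor gene Scarb1 by 0.53 (0.00576). Gramd1b, which moves sterol from the plasma membrane to the endoplasmic reticulum, fell by 0.94 (0.000426) and passed for the interaction of the deletions (-1.18 ± 0.25, adjusted p = 0.0226). Monocyte and macrophage markers rose in 4 of 7 in the same comparison, and their part in the Abcg1 value was not tested. In the MLKL triple knockout 5 of the 20 fell against the double knockout and 0 rose, beside 4.21% of all genes lower and 3.44% higher. Monocyte and macrophage markers fell there in 2 of 7, and their part was not tested. The 5 include Arl4c (-1.25), Abcg1 (-1.36), Stard5 (-0.46) and the sterol exporter gene Abcg5 (-1.20).

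**Figure D5:**
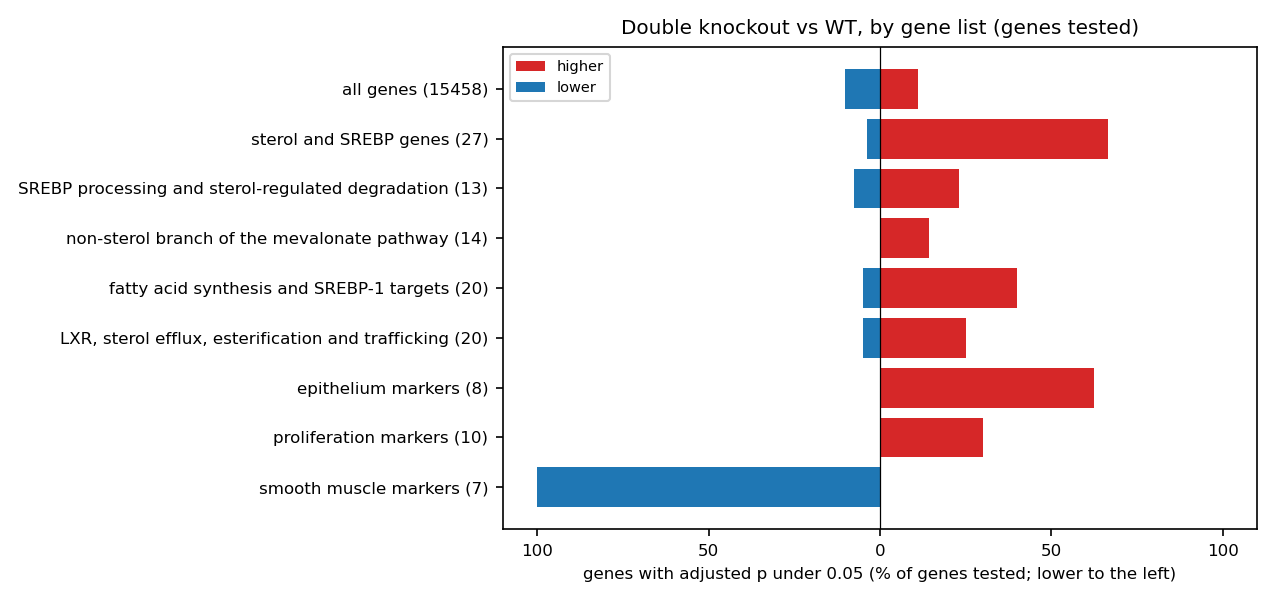
Share of tested genes called higher (right, red) or lower (left, blue) in the double knockout against WT (horizontal axis, percent; adjusted p under 0.05, edgeR) for gene lists (vertical axis, number tested in brackets). The immune, goblet cell, absorptive, fibroblast, neuron and adipose marker lists are not drawn. Of 6 neutrophil and 6 T and NK cell markers listed, 3 of each were tested, and all of these were higher. Of the lists drawn, the 27 sterol and SREBP genes (18 higher) and the 8 epithelium markers (5 higher) have the longest bars to the right, and the 7 smooth muscle markers are all lower.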

How the data were processed

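Colon RNA of 30 mice (5 per genotype) was sequenced with Lexogen 3′ QuantSeq FWD libraries, per the labels' protocols. The submitters' processing notes name cutadapt 3.2, Subread, featureCounts 2.01 and R 4.0.0 and the builds GRCm38 and mm10. For aligner settings, strand setting and annotation, the sources used here give nothing, and no molecular identifiers are named. The table deposited by the authors holds estimated counts per gene, of which 11.2% of the non-zero values are not whole, and rounding them to integers moved no library total by more than 0.00321%. Spike-in rows (92, all without reads) were left out.

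From these, CPM was computed as the deposited count per 1000000 of the library total, and 1 fit of all 30 libraries was made with edgeR 4.0.16 in R 4.3.3 (TMM, filterByExpr, quasi-likelihood F test). Whether groups overlapped was read from CPM, which does not carry the TMM factors used for the log2 fold changes. Those factors were 1.008 to 1.045 in WT and 0.921 to 0.998 in the Xbp1 knockout. Benjamini-Hochberg adjustment ran over all 15458 genes kept. Adjusted p in the text is from this test unless another fit is named, with a threshold of 0.05, and SE is the log2 fold change divided by the square root of F. The 6 groups gave 11 contrasts, 1 of them the interaction. The fit was tested on simulated counts with 200 changed genes.

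Alternatives were DESeq2 1.42.0, its size factors, no filter and a stricter one (10 CPM in 5 libraries), a replicate block, sex as a term, males only, only the groups compared, each library left out, the 3 libraries that stand apart left out, and, chosen after seeing the data, scaling to epithelial markers. The genes and lists were chosen with earlier results of these data known. All 28 genes are named. Values of every mouse are given for 13 of them and for the gene with the smallest p in a comparison, and up to 4 genes per other list and comparison are named by smallest p. Depth limits the values: 3.52e+06 to 5.82e+06 reads per library leave genes of a few CPM with few reads.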

Additional observations from a re-analysis of the deposited data

Results flagged for a closer look

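In 14 of 168 sets of 5 mice (28 genes in 6 genotypes) the highest or lowest mouse lay apart from the other 4, with a gap over the range above Dixon's critical value of 0.71. Chance gives about 1 in 20 for a single set. The genes varied together over the mice, so the sets are not independent and 1 mouse can give several flags. Mouse 1 of the TNFR1 triple knockout was the highest of its group for Sc5d (114 CPM), Nsdhl (41.8 CPM), Mvk (32.0 CPM) and Srebf1 (31.2 CPM), while mouse 2 was lowest for Stard4 (91.7 CPM) and mouse 3 highest for Tm7sf2 (40.2 CPM). Without mouse 1 the count of genes below the double knockout went from 3 to 15.

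In the double knockout, mouse 1 was highest for Nsdhl at 78.8 CPM, against 41.7 to 47.6 CPM in the other 4. Among WT mice, mouse 3 was lowest for Insig1 (6.92 CPM), mouse 1 lowest for Idi1 (0.900 CPM), and mouse 5 highest for Fdft1 (55.5 CPM) and Dhcr7 (58.5 CPM). In the Xbp1 knockout, mouse 3 was lowest for Fdft1 (20.4 CPM) and mouse 5 highest for Srebf2 (142 CPM). In the Casp8 knockout, mouse 1 was lowest for Lss, at 7.11 CPM against 22.2 to 24.6 CPM.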

How the results depend on the processing

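For 41 called gene and comparison pairs, 668 of 784 values under alternatives kept their direction and their side of the threshold, 115 lost the call and 1 changed sign. The change of sign was Lbr in the double knockout against WT, at -0.033 with the epithelial scaling chosen after seeing the data, and 22 pairs were called in every alternative. With 1 library left out, the number of genes called ranged from 14 to 18 in the double knockout against WT, 9 to 15 against the Casp8 and 1 to 3 against the Xbp1 knockout, and 0 to 15 for the TNFR1 and 3 to 5 for the MLKL triple against the double knockout. It was 0 to 1 for the Xbp1 knockout and for the MLKL triple knockout against WT and 0 throughout for the other comparisons.

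For the TNFR1 triple against the double knockout, the 3 calls became 10 with DESeq2, 10 without the low-count filter, and 0 with sex as a term, without the 3 libraries that stand apart or with only the groups compared. The MLKL triple knockout against WT gave 0 with sex as a term and 2 with only its groups fitted. The Xbp1 knockout against WT gave 3 and the Casp8 knockout against WT 1 with only their groups fitted, and the double against the Xbp1 knockout gave 1 without the 3 libraries. The cause was not tested. Replicate numbers did not pair the mice (correlation of deviations of same-numbered mice -0.278 to 0.303). With the replicate block, 18 genes were called in the double knockout against WT in place of 19, with Hmgcs1 lost (adjusted p = 0.0565), and the counts of the other comparisons were as without it.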

Other observations

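The neighbouring lists also differed between the double and the single knockouts, in comparisons that share the double knockout libraries. Against the Casp8 knockout 7 of 20 genes of fatty acid synthesis rose and 1 fell, with Agpat2 at 0.59, Elovl5 at 0.69, Elovl1 at 0.55 and Acsl3 at -0.70 (log2 fold changes, edgeR). Against the Xbp1 knockout 4 of 20 rose and 0 fell: Agpat2 by 0.65, Elovl5 by 0.60, Elovl1 by 0.37 and Fasn by 0.62. These counts stand beside 18.4% and 8.64% of all genes called in either direction.

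Of the sterol efflux genes, Abcg1 was higher in the double knockout than in the Xbp1 (1.23) and the Casp8 knockout (1.78), and Gramd1b was lower than in both (-0.71 and -1.41). In the MLKL triple knockout against WT the exporter gene Abcg8 fell by 1.53 (adjusted p = 0.0149) and Erlin2 rose by 0.45 (adjusted p = 0.0354).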
